A study of Mus musculus with 3 samples.

Results

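The TIMP genes *Timp1*, *Timp2* and *Timp3* encode tissue inhibitors of metalloproteinases, and the H3K27ac peaks around them were compared in mouse muscle at 3 ages. These 3 genes are members of a list of 84 extracellular matrix (ECM) genes that the study placed on the mouse genome mm9. A peak was assigned to the nearest transcription start site (TSS) of that list when its edge lay at most 100 kb away. It was called a promoter peak within 2.5 kb and a distal peak beyond. TIMPs are secreted proteins that bind the active site of matrix metalloproteinases and of some ADAM and ADAMTS proteases, and so limit the breakdown of collagens and other matrix proteins. *Timp1* is an inducible inhibitor known from wound repair and fibrosis, *Timp2* also takes part in the activation of pro-MMP2 together with MMP14, and *Timp3* is held in the matrix and inhibits ADAM17 as well. H3K27ac, acetylation of lysine 27 on histone H3, marks active enhancers and promoters, so a peak reports on chromatin and not on the RNA or protein of these genes.

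H3K27ac ChIP-seq was done on tibialis anterior (TA) muscle of C57/BL6 mice aged 2, 10 and 20 months with an antibody from Abcam, and each age has 1 library. No difference between ages can therefore be set against a spread between animals, and all intervals given here cover counting error only. Sex, and whether muscles of several animals were pooled, are not given in the labels. Their extraction text speaks of activated satellite cells although the tissue label is whole TA muscle, and in whole muscle a change in the number of cells of one type and a change in signal per cell cannot be told apart. The labelled tissue was not checked against muscle marker genes, because positions on mm9 were at hand for the 84 ECM genes alone.

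The complete lists of 2, 10 and 20 months held 17884, 35221 and 44752 peaks, so more peaks at a gene are the general direction of these libraries. The read number at each summit was recovered from the deposited fold and p-value and then expressed as a multiple of that library's mean coverage (the genome mean), which was 1.261, 2.242 and 2.504 reads. Library depths implied by the lists were 15.9, 18.9 and 26.3 M reads. The smallest summit called was 8 reads at 2 months and 10 reads at both later ages, and the median summit was 14, 35 and 35 reads. The lists also differed in background. At 2 months the background of 78.3% of peaks equalled the genome mean. This held for 2.87% and 4.89% of peaks in the 10- and 20-month lists, whose background followed the reads of the 10 kb around each peak.

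The 3 promoters are shown because a promoter peak was present at *Timp2* and *Timp3* at every age and at *Timp1* at none. Each sequence is the 250 bases before the TSS from RefSeq (build GRCm38.p6), read 5′ to 3′ on the strand of the gene. Peaks are on mm9 and were not converted. Capitals mark GGGCGG, the core of a GC box, or its reverse complement CCGCCC. The promoters lie at chrX:20869916-20870165 (+ strand) for *Timp1*, chr11:118355412-118355661 (- strand) for *Timp2* and chr10:86300162-86300411 (+ strand) for *Timp3*.
Timp1 promoter: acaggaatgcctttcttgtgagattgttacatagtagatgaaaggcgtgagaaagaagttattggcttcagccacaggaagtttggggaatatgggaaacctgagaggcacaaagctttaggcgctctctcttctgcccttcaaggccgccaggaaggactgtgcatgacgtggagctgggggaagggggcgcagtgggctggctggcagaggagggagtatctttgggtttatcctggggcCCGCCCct
Timp2 promoter: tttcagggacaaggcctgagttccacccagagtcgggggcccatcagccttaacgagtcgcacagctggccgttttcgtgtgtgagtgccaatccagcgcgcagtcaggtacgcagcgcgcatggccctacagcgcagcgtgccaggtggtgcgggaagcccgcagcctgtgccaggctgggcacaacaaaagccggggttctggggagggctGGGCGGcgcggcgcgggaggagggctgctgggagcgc
Timp3 promoter: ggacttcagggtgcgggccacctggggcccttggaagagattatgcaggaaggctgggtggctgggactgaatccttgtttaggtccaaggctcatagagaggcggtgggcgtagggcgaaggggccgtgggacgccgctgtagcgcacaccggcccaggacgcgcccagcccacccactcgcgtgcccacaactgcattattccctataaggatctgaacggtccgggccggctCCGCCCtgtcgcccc
The *Timp1* window held 6 CG pairs, the *Timp2* window 21 and the *Timp3* window 18, beside a median of 6 over 32851 RefSeq promoters of the same length. A lower number of CG pairs was found in 49.6% of promoters for *Timp1*, in 83.7% for *Timp2* and in 78.3% for *Timp3*. The *Timp2* and *Timp3* promoters with a peak at every age were thus the CG-rich ones of the 3. GGGCGG was found once in each window, on either strand, and in 32.7% of all promoters. Neither TGANTCA (6.75% of promoters) nor TATAAA (12.4%) was found in any of the 3 windows.

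The study also designed ChIP-PCR primers for an enhancer of *Timp2* and of *Timp3*, which are the only sequences at hand from distal elements of these genes. Their positions on mm9 were not determined here, so they are not tied to a peak below.
Timp2 enhancer forward primer: ttcctttggtgttggggagt
Timp2 enhancer reverse primer: aaagaggacctgggagatgc
Timp3 enhancer forward primer: gcccagttaccagagacctt
Timp3 enhancer reverse primer: accatgaacccagctgaaga

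Over the 3 genes, the lists of 2, 10 and 20 months held 16, 18 and 29 distal peaks. The length they covered was 4785, 10068 and 11924 bp, which is 2.104 times the 2-month length at 10 months and 2.49 times at 20 months. The 3 genes differed in their course. *Timp1* (chrX:20447292-20451863, + strand) had 0, 4 and 9 distal peaks in the 3 lists. *Timp2* (chr11:118162375-118216725, - strand) had 11, 10 and 11 at the same ages. *Timp3* (chr10:85763157-85812250, + strand) had 5, 4 and 9. The deposited number of *Timp2* peaks stayed at 10 or 11 while the length they covered went from 3662 to 5374 and 5913 bp. Peaks of the complete later lists were wider too, with mean widths of 337, 493 and 435 bp at 2, 10 and 20 months. The level count of *Timp2* depended on how peaks were split, since with peaks within 1 kb merged *Timp2* had 5, 8 and 8, and 7, 10 and 10 when peaks under 222 bp were left out. *Timp1* distal peaks covered 2599 bp at 10 months and 2995 bp at 20 months, and those of *Timp3* covered 1123, 2095 and 3016 bp.

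**Figure D1:**
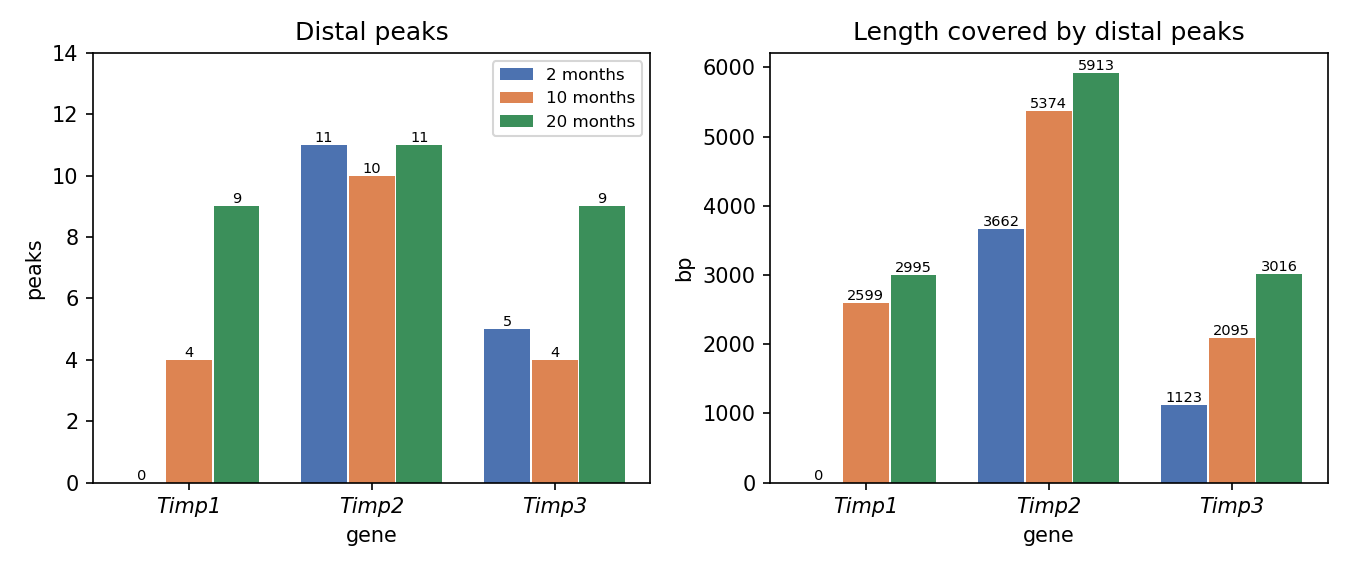
Number of distal H3K27ac peaks (left axis panel, peaks) and length covered by them (right axis panel, bp) at each TIMP gene, 1 bar per library at 2, 10 and 20 months. *Timp1* goes from 0 to 9 peaks, while *Timp2* stays at 10 or 11 peaks and its covered length goes from 3662 to 5913 bp.

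Set beside the ECM list, more distal peaks at 20 than at 2 months were found at 2 of 3 TIMP genes and at 67.9% of the 84 ECM genes. The pattern of *Timp1*, distal peaks in both later lists after none at 2 months, was shared by 17.9% of ECM genes. Distal peaks of the whole ECM list numbered 194, 348 and 458, a 2.36-fold difference between 20 and 2 months against 1.81-fold for the TIMP genes. At 2 months *Timp2* stood high in the list, with 3 ECM genes holding more distal peaks than its 11 and a median of 0 over the list. At 20 months 12 ECM genes held more than *Timp2*, and 18 held more than *Timp1* or *Timp3*, beside a median of 3. The higher TIMP count at the later ages was not kept in lists of equal length. When the longer lists were shortened to the 17884 peaks with the lowest q values, the 3 genes had 16, 10 and 11 distal peaks, so the later counts were then below the 2-month count. *Timp1* kept its direction in this setting with 0, 3 and 3 peaks, *Timp2* had 11, 6 and 7, and *Timp3* had 5, 1 and 1. Ranks by q were not alike between lists, since most 2-month peaks had the genome mean as background and most later peaks a local one. List length and background therefore could not be told apart in this setting. The ECM list was not counted in this setting, so a fall particular to the TIMP genes was not shown.

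Promoter peaks were present at *Timp2* and *Timp3* at all 3 ages and absent from all 3 lists at *Timp1*, while 23.8% of ECM genes had a promoter peak at all ages. *Timp2* had 2, 1 and 2 promoter peaks and *Timp3* had 2, 2 and 3. At the peak of *Timp2* next to the TSS (chr11:118216789-118217264) the summit held 14, 39 and 44 reads at 2, 10 and 20 months. Over the genome mean these summits stood at 11.1, 17.4 and 17.6. For the peak of *Timp3* next to the TSS (chr10:85763295-85763977) the reads were 21, 53 and 58, or 16.6, 23.6 and 23.2 times the genome mean. The later libraries were higher at both promoters, by 1.57 (95% interval 0.832 to 3.12) and 1.42 (0.842 to 2.48) at 10 over 2 months and by 1.58 (0.851 to 3.13) and 1.39 (0.832 to 2.41) at 20 over 2 months. None of these 4 intervals excluded 1, so on this scale a difference in promoter height was not detectable at this depth. Scaled to library depth instead (RPM), the ratios were 2.35 (1.25 to 4.68) and 2.13 (1.26 to 3.72) at 10 over 2 months. At 20 over 2 months they were 1.90 (1.02 to 3.76) and 1.67 (1 to 2.90). All 4 RPM intervals lay above 1, the last only just. RPM ratios differ from the genome-mean ratios only by the fragment lengths taken for the lists (148, 222 and 178 bp). The change of call thus came from these lengths.

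**Figure D2:**
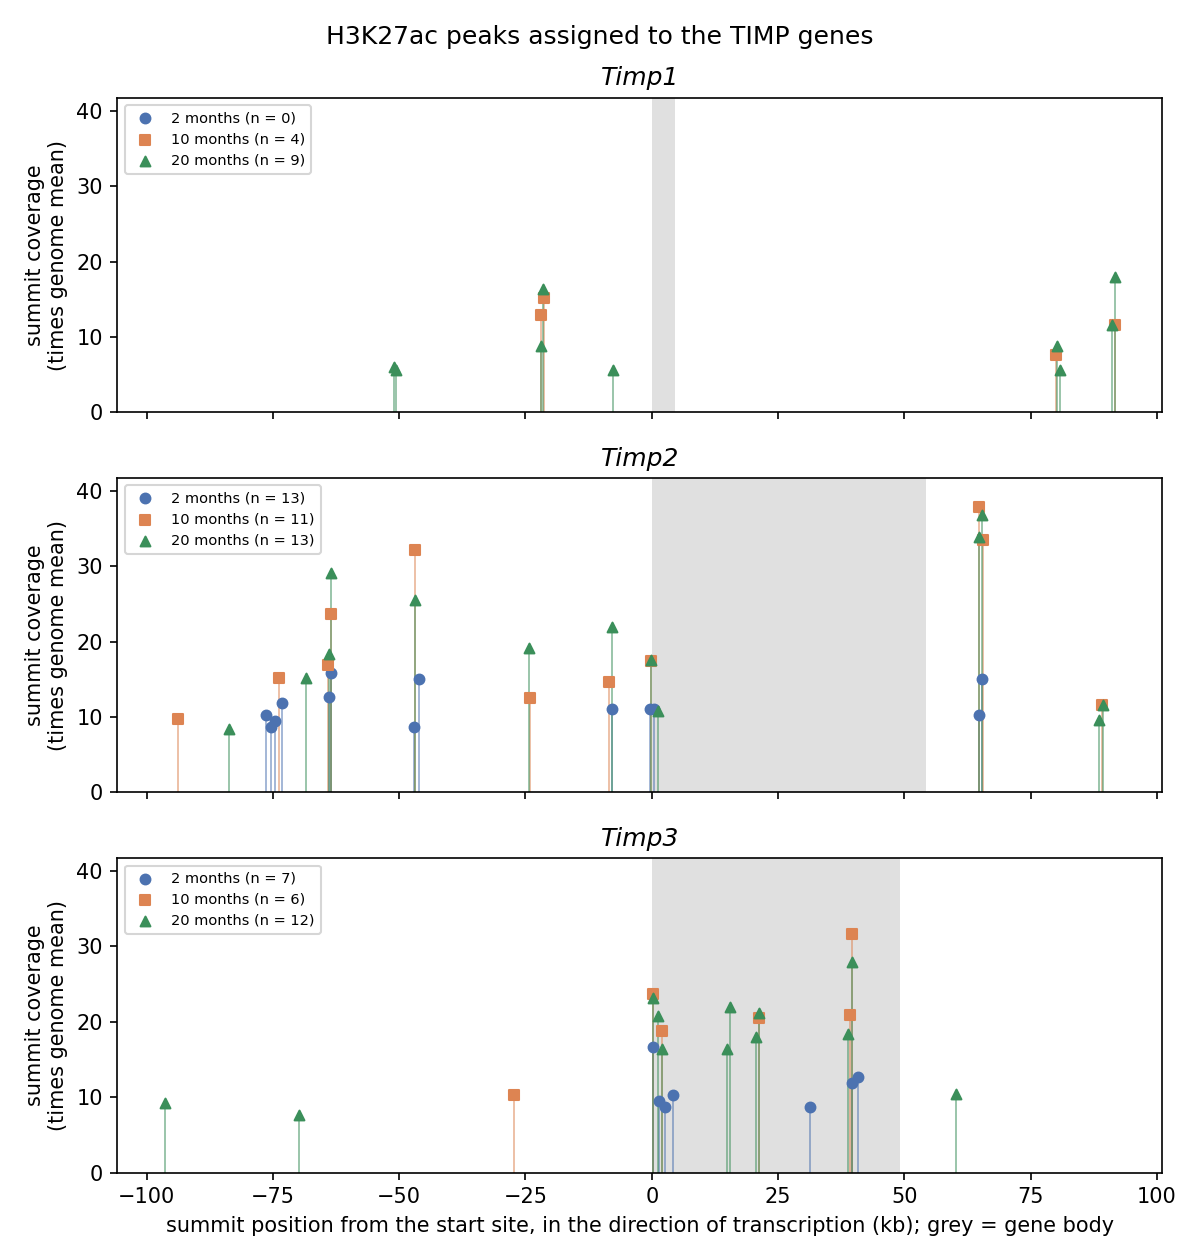
Summit coverage of the 75 peaks assigned to the TIMP genes (vertical axis, times the genome mean of each library) against their position from the TSS (horizontal axis, kb in the direction of transcription), with the gene body in grey and 1 symbol per age. *Timp1* has no 2-month peak, *Timp2* peaks lie outside the gene body except near the TSS, and most *Timp3* peaks lie inside it.

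The distal peaks of the 3 genes lay in different parts of their loci. All distal peaks of *Timp1*, a gene of 4572 bp, were outside the gene, with 2 upstream and 2 downstream at 10 months and 5 upstream and 4 downstream at 20 months. *Timp2*, which spans 54351 bp, had no distal peak in its gene body at any age. Its peaks were upstream (9, 7 and 7) and downstream (2, 3 and 4). *Timp3*, which spans 49094 bp, showed the opposite arrangement, with 5 of 5, 3 of 4 and 6 of 9 distal peaks in the gene body. In the RefSeq annotation *Timp1* lies within *Syn1* and *Timp3* within *Syn3*, and *Cep295nl* lies within *Timp2*, so distal peaks assigned here may belong to these or other neighbours, such as *Araf* and *Usp11* next to *Timp1* or *Usp36* and *Lgals3bp* next to *Timp2*. Assignment considered the 84 ECM genes alone.

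Over the 3 libraries the 75 TIMP peaks formed 46 regions of overlapping peaks, 8 at *Timp1*, 21 at *Timp2* and 17 at *Timp3*. A peak at all ages was found in 8 of the 46 regions, 6 at *Timp2* and 2 at *Timp3*, while 20.1% of the 52693 regions of the whole series had one. Peaks at 10 and 20 months without a 2-month peak were found in 9 of 46 regions (33.8% of all regions). Another 14 of 46 had a peak at 20 months alone (24.6% of all), and 9 of 46 at 2 months alone (8.13% of all). *Timp1* had regions of the later kinds and no others, 4 with peaks at 10 and 20 months and 4 at 20 months alone. The 9 regions seen at 2 months alone were 5 of *Timp2* and 4 of *Timp3*.

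At *Timp1* the highest regions at 20 months were 21.5 kb upstream (chrX:20425689-20426223) and 91.7 kb downstream of the TSS (chrX:20538097-20539518). The upstream summit held 34 reads at 10 months and 41 at 20 months, and no peak was listed at 2 months. The downstream summit held 26 and 45 reads. The ratios of 20 over 10 months after division by the genome mean were 1.08 (0.669 to 1.76) and 1.55 (0.936 to 2.62), and neither interval excluded 1. The region 21.95 kb upstream (chrX:20425060-20425510) went the other way, with 29 reads at 10 months, more than at 91.7 kb, and 22 at 20 months. The ratio there was 0.679 (0.372 to 1.22) on the genome-mean scale and 0.545 (0.298 to 0.982) in RPM, so its interval lay below 1 on the RPM scale alone. Scaled to the depth of the 2-month library, the 4 regions with peaks at both later ages would hold 9.56 to 19.1 reads at their 10-month level. At their 20-month level they would hold 11.1 to 22.7, and both ranges lie above the smallest 2-month summit of 8 reads. This scaling corrects for mean coverage alone. Regions of the whole series with a peak at all ages had median ratios over 2 months of 1.95 and 2.08 on this scale. Whether the missing 2-month peaks at these 4 regions go beyond that general difference was not tested. The 4 regions seen at 20 months alone would hold 7.05 to 7.56 reads, under the smallest 2-month summit, so their absence at 2 months was not detectable as a difference at this depth. At the 10-month depth they would hold 12.5 to 13.4 reads. The smallest 10-month summits at a background like that of the nearest 10-month peak (within 5%) held 12 or 13 reads. Of the 4 levels, 2 were under that limit. For 3 of the regions that peak lay 13.8 to 29.1 kb away, and their own 20-month background was the genome mean. At the genome mean the smallest 10-month summit held 10 reads, which these 3 levels exceed. The call at 10 months therefore depended on the background taken. The region at 91.7 kb held 1 peak at 10 months and 2 at 20 months.

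*Timp1* is the TIMP gene on chromosome X, and the 2-month list was short of peaks on that chromosome. Outside a stretch from 120 to 130 Mb, which held 397 peaks at 2 months and 3 and 5 later, chromosome X had 162, 707 and 916 peaks at 2, 10 and 20 months. These are 4.36- and 5.65-fold differences from 2 months, against 2.00 and 2.54 on autosomes. Of the merged regions outside that stretch, 49.5% on chromosome X had peaks at 10 and 20 months and none at 2 months, against 33.8% on autosomes. The 2-month library listed 76 peaks on chromosome Y and each later library 1. Sex is not given for these libraries, so for *Timp1* age and this difference between the libraries cannot be told apart.

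*Timp2* held the tallest TIMP summits at 10 and 20 months. In the region 64.7 kb from the TSS and downstream of the gene (chr11:118151804-118152319) the summit reads were 13, 85 and 85 at 2, 10 and 20 months. The neighbouring region at 65.5 kb (chr11:118150648-118151440) held 19, 75 and 92 reads. Both held fewer reads at 2 months and were about level between the later ages. Among all peaks of a list the summit at 64.7 kb stood at percentile 42.4, 98.3 and 96.0 in order of age and that at 65.5 kb at 84.5, 96.0 and 97.4, so the region at 65.5 kb was already among the taller peaks at 2 months. The ratio over 2 months at 64.7 kb was 3.68 (2.04 to 7.19) at 10 months and 3.29 (1.83 to 6.44) at 20 months. At 65.5 kb it was 2.22 (1.33 to 3.89) and 2.44 (1.48 to 4.23). These 4 intervals lay above 1.

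Upstream of *Timp2*, 3 further regions had a peak at every age. The region 46.8 kb upstream (chr11:118262502-118264027) held 19, 72 and 64 reads, with ratios over 2 months of 2.13 (1.27 to 3.74) and 1.70 (1.004 to 2.999), although its highest 2-month summit lay 750 and 870 bp from the later ones. At 63.4 kb (chr11:118279650-118280288) the reads were 20, 53 and 73 and the ratios 1.49 (0.876 to 2.63) and 1.84 (1.11 to 3.18). At 64.0 kb (chr11:118280567-118280923) the reads were 16, 38 and 46 and the ratios 1.34 (0.727 to 2.57) and 1.45 (0.805 to 2.74). The upstream regions were thus higher in both later libraries, with an interval above 1 at both ages for 46.8 kb, at 20 months for 63.4 kb and at neither for 64.0 kb. In *Timp3*, the region with a peak at all ages in the gene body, 39.6 kb from the TSS (chr10:85802611-85803626), held 15, 71 and 70 reads. Its ratio over 2 months was 2.66 (1.51 to 5.003) at 10 months and 2.35 (1.33 to 4.42) at 20 months.

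**Figure D3:**
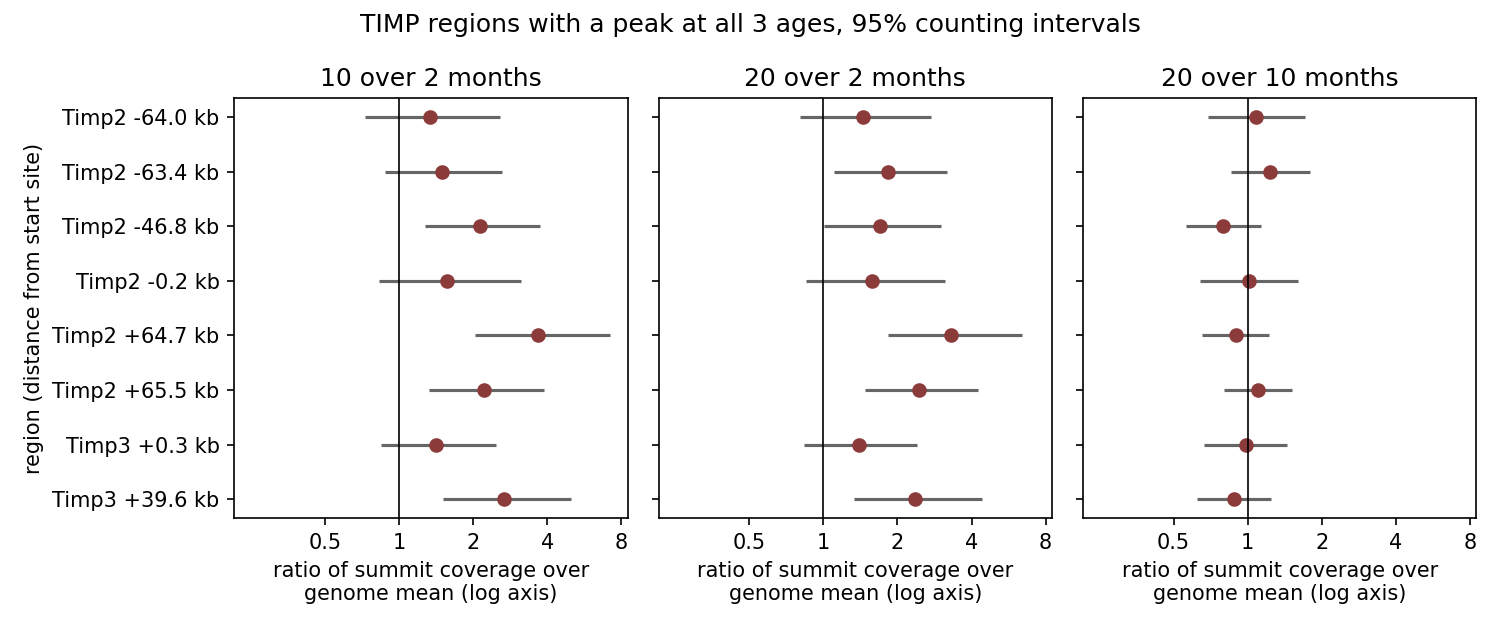
Ratios of summit coverage over the genome mean (horizontal log axis) at the 8 TIMP regions with a peak at all 3 ages, named by gene and distance from the TSS. Points are ratios and lines are exact 95% intervals for counting error, and every point lies above 1 against 2 months while the 20 over 10 month points lie between 0.796 and 1.23.

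Over these 8 regions, 4 intervals lay above 1 at 10 over 2 months and 5 at 20 over 2 months, while 58.1% and 65.8% of the 10596 regions with a peak at all ages did so. A ratio of at least 1.5 was reached by 5 and 6 of the 8 regions, against 73.8% and 80.6% of all such regions. The median ratios were 1.85 and 1.77 for the TIMP regions and 1.95 and 2.08 for all. These 8 TIMP regions were thus higher later to about the extent of all such regions. This rests on the requirement of a peak at every age. When all 19 TIMP regions with a 2-month peak entered and a missing later peak was set to the smallest summit of its list, the median of 10 over 2 months turned to 0.511 and that of 20 over 2 months was 1.39. At 10 months the 9 regions with a 2-month peak alone and 2 with peaks at 2 and 20 months were so set. They make up most of the 19, so the 0.511 was fixed by the set value and shows no lower level. Between 20 and 10 months 0 of 8 regions were 1.5-fold or more apart, as were 4.01% of all, and the medians were 0.995 and 1.06. RPM scaling, which differs from the genome-mean scale by the fragment lengths alone, moved these values. The TIMP medians became 2.77, 2.13 and 0.798, beside 2.92, 2.504 and 0.851 for all regions. On that scale 8 of 8 intervals lay above 1 at 10 over 2 months and 7 of 8 at 20 over 2 months, against 85.6% and 80% of all regions, and 3 of 8 lay below 1 at 20 over 10 months, against 9.89%.

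The level of signal around the peaks was highest at *Timp3* and lowest at *Timp1*. The 10 kb around the *Timp3* promoter held 745 reads at 10 months and 921 at 20 months, 7.38 and 6.55 times the genome mean. Around the region at 39.6 kb it held 840 and 1103 reads, 8.32 and 7.84 times the genome mean. Over the 6 *Timp3* peaks at 10 months the median was 7.95 times the genome mean, at percentile 92.5 of all peaks in the list, and over the 12 peaks at 20 months it was 6.54 times, at percentile 89.2. *Timp2* had medians of 3.78 and 3.93 times and *Timp1* of 1.52 and 1.24 times the genome mean, beside 3.20 and 2.94 for all peaks. The *Timp3* peaks shared by both ages, which lie between the promoter and 39.6 kb into the gene, thus sat in high surrounding signal, and *Timp1* peaks in signal close to the genome mean. This measure could not be had at 2 months, where the deposited background did not follow the 10-kb reads.

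**Figure D4:**
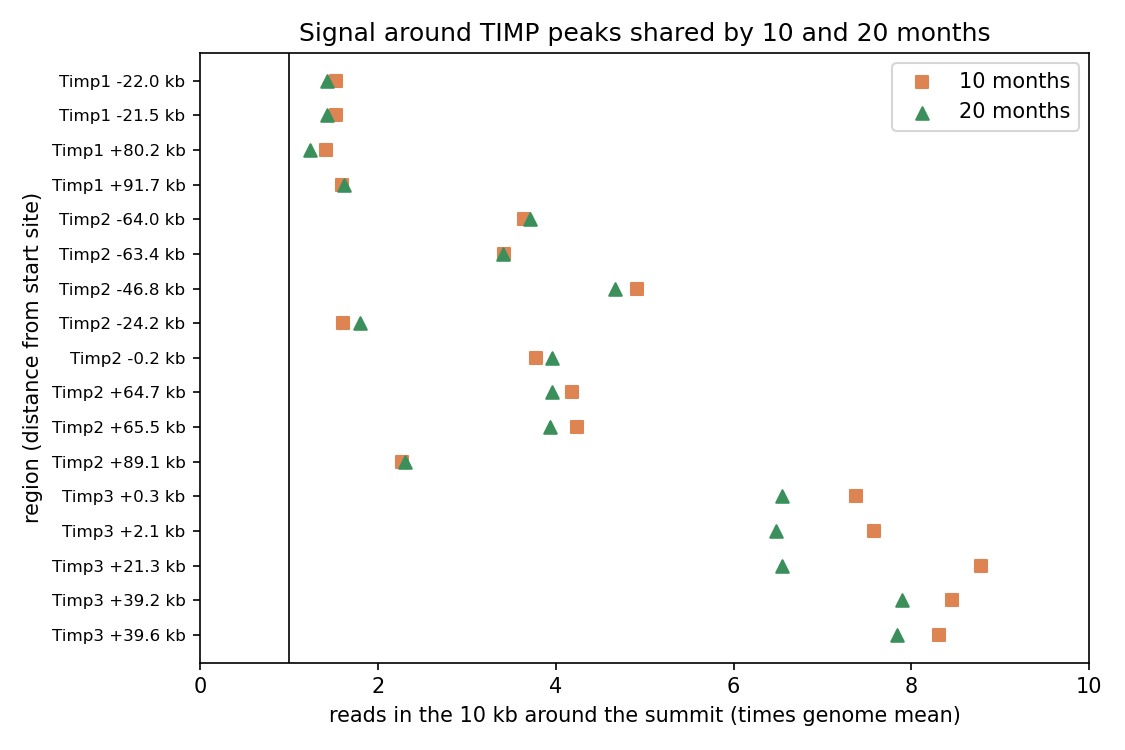
Reads in the 10 kb around the summit (horizontal axis, times the genome mean of the library) at the 17 TIMP regions with peaks at both 10 and 20 months, named by gene and distance from the TSS, 1 symbol per library. *Timp3* regions lie between 6.48 and 8.78, *Timp2* regions between 1.60 and 4.91, and *Timp1* regions between 1.24 and 1.62.

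Scaled to library depth (RPM), these windows were slightly lower at 20 than at 10 months in 3 of the 5 *Timp3* regions, with intervals below 1. The window at 21.3 kb in the gene body held 887 and 920 reads, a ratio of 0.745 (0.679 to 0.818). The promoter window had a ratio of 0.888 (0.805 to 0.979) and the window at 2.1 kb one of 0.854 (0.775 to 0.942), and these 2 windows share most of their bases. At 39.2 and 39.6 kb the ratios were 0.933 (0.853 to 1.02) and 0.943 (0.861 to 1.03). No window of *Timp1* or *Timp2* had an interval below 1. Of the 27573 regions with peaks at both ages 18.9% had one, with a median ratio of 0.968, and this comparison was chosen after the data had been seen. *Timp3* windows held more reads than most, at median percentiles of 92.5 and 89.2, so their intervals were narrower than those of most regions.

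The height of the surrounding signal bears on the peaks that were listed at 2 months alone. At the 4 such *Timp3* regions, 2.7, 4.2, 31.2 and 40.8 kb into the gene, the 2-month summits held 11, 13, 11 and 16 reads over a 2-month background of 1.29 to 1.98 reads. At the nearest later peaks the background was 17.0 to 19.0 reads at 10 months, and the smallest summit listed at a like background (within 5%) held 37 to 39 reads. The 2-month levels scaled to the 10-month depth were 19.6 to 28.4 reads, under that limit at all 4 regions, and the same held for all 4 at 20 months. For the 5 *Timp2* regions the scaled level was under the limit at 4 for 10 months and at 2 for 20 months. A peak missing from a later list therefore did not show a lower level at the *Timp3* regions, and the level there at the later ages was not determined. Of the regions listed at 20 months alone, 3 of 6 at *Timp3* and 1 of 4 at *Timp2* were under the limit at 10 months. That limit used the background of the nearest 10-month peak, 6.36 to 42.6 kb away. At *Timp3* this background was 18.65 reads for the region at 60.1 kb and 6.55 for that 69.8 kb upstream. Their own 20-month backgrounds were 7.65 and 2.99 reads. At the *Timp2* region 83.7 kb upstream the 2 values were 13.3 and 6.19 reads. For these regions the limit was taken at an unlike background, so those calls are not settled. At the second *Timp2* promoter peak, 0.383 kb into the gene, no separate peak was listed at 10 or 20 months. Its 14 reads at 2 months would be 24.9 and 27.8 reads at the later depths, slightly above limits of 22 and 24 reads. These scaled values carry the counting error of 14 reads, so a lower level at the later ages was not shown there either.

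The proteases that TIMPs inhibit were represented in the ECM list by 16 genes of the MMP and ADAMTS families. Their distal peaks numbered 24, 58 and 70 at 2, 10 and 20 months. More at 20 than at 2 months were found at 11 of 16 genes and fewer at 0, beside more at 57 (67.9%) and fewer at 2 of the 84 ECM genes. The protease share was thus near that of the whole list. The covered length was 8946, 27158 and 30083 bp, 3.04 and 3.36 times the 2-month value, beside 2.104 and 2.49 times for the TIMP genes and 2.78 and 3.16 times for all ECM genes. A promoter peak was found at 5, 4 and 6 of the 16 protease genes and at 22, 29 and 42 of the 84 ECM genes. With 1 library per age, the difference between inhibitors and proteases was not tested.

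By number of distal peaks at the 3 ages, the ECM gene most like *Timp1* was *Col5a1*, a chain of type V collagen (0, 5 and 9 peaks), followed by *Cdh1*, *Col6a1* and *Spp1*. The gene most like *Timp2* was *Pecam1*, an adhesion molecule of endothelial cells (11, 9 and 11 peaks), followed by *Mmp9*, *Itgae* and *Lamb2*. *Timp3* was closest to *Col1a1*, a chain of type I collagen (6, 5 and 10 peaks), and *Mmp14*, a membrane-bound metalloproteinase (5, 7 and 9 peaks), then to *Itga3* and *Vtn*. Likeness was the sum of absolute differences over 3 ages, which was 1 for *Col5a1* and for *Pecam1* and 3 for *Col1a1* and *Mmp14*.

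The ECM list also holds genes that mark other cell types of whole muscle, and their counts are given beside those of the TIMP genes. The 4 fibroblast matrix genes (*Col1a1*, *Col3a1*, *Postn* and *Fbln1*) had 6, 5 and 13 distal peaks and a promoter peak at 0, 2 and 3 genes. *Col1a1* alone held 6, 5 and 10 of these distal peaks, and *Postn* had none at any age. The 4 endothelial genes (*Pecam1*, *Sele*, *Selp* and *Vcam1*) had 12, 11 and 15 distal peaks and a promoter peak at 1, 1 and 2 genes. *Pecam1* alone held 11, 9 and 11 of these distal peaks, and *Selp* had none at any age. *Vcam1* does not mark endothelial cells alone, as the study also used Vcam to sort satellite cells. The 4 leukocyte genes (*Itgal*, *Itgam*, *Itgax* and *Itgb2*) had 30, 42 and 46 distal peaks and a promoter peak at 0, 0 and 1 genes. Most of these distal peaks were at *Itgal* (16, 20 and 23) and *Itgb2* (10, 16 and 18). The part of cell composition in the TIMP counts was not tested.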

How the data were processed

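H3K27ac ChIP-seq of TA muscle was used as 1 peak list per age (2, 10 and 20 months). Per the submitters' processing notes, the authors aligned reads with Bowtie2 to mm9 and called peaks with MACS2 2.1.0. Not given in the sources used here, for these mouse libraries, are the Bowtie2 version, the calling parameters and any control library. MACS2 default parameters are stated for the study's public human datasets. The deposited lists give peak and summit positions, a score, a ratio (fold of summit pileup over background), a −log10 p and a −log10 q for each peak, all made by the authors. The score was not used.

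Summit reads, as an integer, and background reads were solved per peak from its deposited fold and −log10 p (tolerance 0.001 in −log10 p). On simulated data this returned the simulated reads for 100% of 5000 peaks in each library. This failed for 1 peak in each of the later lists. The lowest background was taken as the genome mean, and depth follows from it, the smallest peak width as fragment length (148, 222 and 178 bp) and a genome of 1.87 Gb. Background reads were taken as reads per 10 kb where they came out whole within 0.05 reads. Regions were merged on an overlap of at least 1 bp. Ratios have exact conditional binomial 95% intervals. No test of age was made.

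TSSs are those of the study's 84 ECM genes. The members and lists were chosen with earlier results of these data known. Genes named beside members are those in the lists and, for each member, the 3 ECM genes with the smallest summed difference in distal peak number, ties included. Alternatives changed the distance limits, the distance measure, the peak threshold, the list length, peak merging, peak width, the scale and the choice of regions. Protein sequences were not used here. Tables were handled with pandas 2.3.3 in Python 3.11.15, intervals came from scipy 1.17.1 with numpy 2.4.6, and plots from matplotlib 3.10.9.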

Additional observations from a re-analysis of the deposited data

How the results depend on the processing

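With 1 library per age no setting tests age, and depth limits what a missing peak at 2 months can show. No paired analysis was possible because each age has 1 library. The distal peaks at the 3 TIMP genes, 16, 18 and 29 at 2, 10 and 20 months, became 8, 9 and 12 within 50 kb of the TSS and 7, 10 and 16 among the 50% of peaks with the lowest q values. In lists of equal length they were 10 at 10 months and 11 at 20 months, below the 16 at 2 months. Longer lists lose more peaks by construction, and the q values that ranked the peaks rest on unlike backgrounds. Peaks merged within 1 kb numbered 9 at 2 months and 19 at 20 months, and a minimum width of 222 bp left 8 at 2 months. The genes with a promoter peak stayed at 2 of 3 at each age with limits of 1 and 5 kb.

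The median ratio of 10 over 2 months, 1.85 over 8 regions, was 2.77 in RPM and 1.57 with regions merged within 500 bp. It reversed to 0.511 when all 19 regions with a 2-month peak entered and a missing later peak was set to the smallest summit of that list, a value set by construction far under the limit found at a like background. The same setting gave 1.39 for 20 over 2 months (1.77). The ratio of 20 over 10 months, 0.995, was 0.798 in RPM. In reads of the surrounding 10 kb, a scale added after the data had been seen, the median over 17 regions was 0.943.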
